A study of Mus musculus with 4 samples.

Results

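The TNF superfamily ligands are cytokines that immune cells display or release to signal to neighbouring cells. The 10 ligand genes described here are Tnf, Lta, Ltb, Tnfsf4, Tnfsf9, Tnfsf10, Tnfsf12, Tnfsf13, Tnfsf13b and Tnfsf14. They were chosen by gene name, without use of their values, and each has 1 row among the 24497 mouse rows of the deposited expression table. RNA was measured in mouse acute myeloid leukaemia cells driven by NRAS together with AE9a, which is a short form of the AML1-ETO fusion protein. The series compared leukaemias that arose from wild-type (WT) haematopoietic stem cells of bone marrow with leukaemias from Tet2-/- stem cells, in 2 libraries each. Tet2 encodes an enzyme that oxidises 5-methylcytosine. Both groups carry NRAS and AE9a, and both were grown with SCF, IL-3, IL-6, G418 and puromycin. Leukaemic cells were then transplanted into CD45.1+ NCI C57 B6.SJL recipients, which were 6 to 8 weeks old and had received 900 cGy, a lethal dose. CD45.2 cells, of donor type, were enriched from the spleen. Enrichment can leave cells of the host and other donor-derived cells in the sample. The labels give neither the Tet2 allele, nor the strain and sex of the donors, nor whether both libraries of a group stem from 1 mouse, or 1 leukaemia, or more. The p-values below therefore cover the variation among these libraries alone, and that variation may be technical.

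Most TNF superfamily ligands are made as type II membrane proteins that assemble into trimers. They act at the cell surface or, after cleavage by proteases such as ADAM17 or furin, in soluble form. Their receptors cluster on binding and recruit TRAF adaptors, which lead to NF-kB and MAP kinase signalling, or death domain adaptors, which lead to caspase-8. In myeloid cells TNF is among the first cytokines made after stimulation of Toll-like receptors. Other members are known for lymphoid organ structure (the lymphotoxins), T cell costimulation (OX40 ligand, 4-1BB ligand, LIGHT), B cell survival (BAFF and APRIL), cell death (TRAIL) and tissue repair (TWEAK).

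Values are TPM, a level scaled for transcript length and for the library total. Differences are given as log2(TPM + 1) in the Tet2 KO libraries minus that in WT, with the standard error and the Benjamini-Hochberg adjusted p of limma over 11919 genes that reached 1 TPM in at least 2 libraries. A gene passed at an adjusted p under 0.05, and the words rose and fell are kept for genes that passed. Reads of the 2 WT libraries varied about as much as sampling would make them vary, so both were averaged into 1 sample (n = 1). Tet2 KO values are means ± SD (n = 2), and the test takes the spread of the KO libraries for WT as well. The level of Tet2 itself was 43.5 and 43.7 TPM in WT, against 63.7 and 68.1 in the libraries labelled Tet2 KO, so its whole-gene level did not show the knockout. A whole-gene value does not test the loss of single exons. Other features moved with the labels. ERCC spike-in RNAs took 4.66% and 4.62% of TPM in WT against 2.95% and 3.19%, Rn45s, a ribosomal RNA precursor, took 0.923% and 0.894% against 0.134% and 0.298%, and Xist, made by the inactive X chromosome, had 0.340 TPM in both WT libraries against 86.0 and 28.2. Transcripts of the driver genes differed too. Runx1t1, which encodes ETO, was at 31.55 and 30.89 TPM in WT against 146 and 205 in Tet2 KO. Nras was at 159 and 161 TPM in WT against 276 and 356 in Tet2 KO. The part of the introduced NRAS and AE9a in these levels was not tested. These features cannot be told apart from the genotype in this design. Scaling to the ERCC total moved the median difference of all tested genes from -0.12 to 0.43 on the log2 scale, and the ERCC-scaled value is given beside each ligand below. The share of higher genes among all that passed went from 45.2% to 76.8% with that scaling.

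The ligands separated into members that were lower in the libraries labelled Tet2 KO, led by Tnf, Tnfsf9, Tnfsf10, Lta and Tnfsf13b, and members that were higher, namely Ltb, Tnfsf14 and Tnfsf13. Of the 10, 6 fell, 3 rose and Tnfsf4 was too low to be tested; the call of Tnfsf13 is lost when an overlapping gene, Tnfsfm13, is added to it, as described below. The test called 48.8% of all tested genes, 22.1% higher and 26.7% lower, so a call by itself sets no ligand apart. Lta, Tnfsf10 and Tnfsf13b entered the test only through their WT level, so a fall was the direction open to them. Among the 6 ligands at 1 TPM or more in all 4 libraries, 3 rose and 3 fell. The values of the groups did not overlap for any of the 10 ligands, and the same held for 87.0% of all tested genes. In bulk RNA, fewer cells of a type and less RNA per cell cannot be told apart.

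Tnf mRNA was the most abundant of the 10 in both groups. In WT the order of levels after Tnf was Tnfsf9, Tnfsf12, Tnfsf10, Lta, Tnfsf13b, Tnfsf13, Tnfsf14, Ltb and Tnfsf4, and only Tnfsf14 and Ltb had values that overlapped. In the Tet2 KO libraries the order was Tnf, Ltb, Tnfsf12, Tnfsf13, Tnfsf14, Tnfsf9, Tnfsf13b, Tnfsf4, Lta and Tnfsf10. There the range of Ltb covered the values of Tnfsf12, Tnfsf13 and Tnfsf14, and Tnfsf13 overlapped Tnfsf14. Ltb thus moved from the ninth place to the second, and Tnfsf9 from the second to the sixth. The summed level of the 10 ligands was 1224 and 1230 TPM in WT, against 313 and 251 in Tet2 KO. Tnf made up 66.4% and 66.7% of that sum in WT and 65.9% and 59.8% in Tet2 KO, so its share moved little while the total dropped. The share of Tnfsf9 went from 22.8% and 22.4% to 2.98% and 4.84%. Ltb, Tnfsf13 and Tnfsf14 together made up 1.19% and 1.46% in WT and 23.1% and 24.6% in Tet2 KO.

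**Figure D1:**
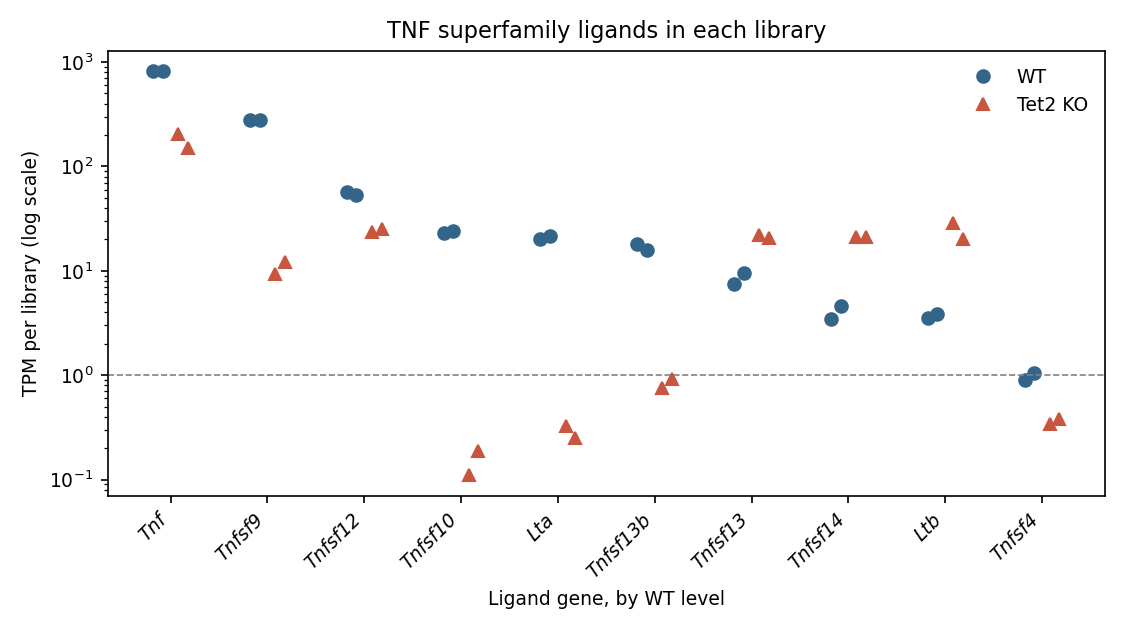
Level of each ligand gene (TPM, log axis) in the 2 WT libraries (circles) and the 2 libraries labelled Tet2 KO (triangles), ordered by WT level, with a dashed line at 1 TPM. Tnf was highest in both groups, Ltb, Tnfsf13 and Tnfsf14 lay higher in Tet2 KO, and Lta, Tnfsf4, Tnfsf10 and Tnfsf13b lay below 1 TPM there.

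Tnf, Ltb and Lta lie side by side on mouse chromosome 17 (mm10), within the major histocompatibility complex, and moved in different directions. Ltb spans 35194439 to 35196320 on the forward strand, Tnf 35199381 to 35202007 on the reverse strand, and Lta 35203165 to 35205351, also on the reverse strand. The genes fill 10.9 kb with no other coding gene between them. A gap of 3.06 kb separates Ltb from Tnf, whose 3′ ends face each other, and 1157 nt separate Tnf from Lta. The sequences just upstream of the annotated starts are shown because neighbours in this locus differed in direction; Tnfsf14, another ligand that was higher, is set beside them. They are from RefSeq (GRCm38.p6, the assembly of mm10), 5′ to 3′ on the strand of the gene, and end at the last base outside an annotated exon. Capitals mark motif matches.

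Tnf, chr17:35202008-35202257, reverse strand: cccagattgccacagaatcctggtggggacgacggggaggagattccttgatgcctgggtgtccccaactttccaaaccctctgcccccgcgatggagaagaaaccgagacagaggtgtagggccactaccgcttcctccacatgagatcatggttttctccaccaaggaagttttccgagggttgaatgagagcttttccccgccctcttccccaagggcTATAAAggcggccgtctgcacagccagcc

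Lta, chr17:35205352-35205601, reverse strand: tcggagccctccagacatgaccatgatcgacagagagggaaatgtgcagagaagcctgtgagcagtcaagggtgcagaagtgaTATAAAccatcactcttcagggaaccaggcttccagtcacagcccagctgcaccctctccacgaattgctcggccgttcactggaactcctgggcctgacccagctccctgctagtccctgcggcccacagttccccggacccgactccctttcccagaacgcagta

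Ltb, chr17:35194257-35194438, forward strand: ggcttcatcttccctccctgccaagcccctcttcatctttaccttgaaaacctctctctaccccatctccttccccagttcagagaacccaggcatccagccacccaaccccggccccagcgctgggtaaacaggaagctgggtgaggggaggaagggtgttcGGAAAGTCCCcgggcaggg

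Tnfsf14, chr17:57194182-57194431, reverse strand: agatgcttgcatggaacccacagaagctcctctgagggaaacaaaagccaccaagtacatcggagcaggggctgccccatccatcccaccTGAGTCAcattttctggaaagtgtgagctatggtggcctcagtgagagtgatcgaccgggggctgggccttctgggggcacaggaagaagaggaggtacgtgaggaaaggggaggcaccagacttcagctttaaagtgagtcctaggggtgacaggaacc

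Windows of 250 bases upstream of each RefSeq start were searched on both strands for 4 motifs, and 7 of the 10 ligands had an entry. The motifs were a TATA box (TATAAA, found in 12.4% of all 32851 windows), an NF-kB site (3.90%), an AP-1 site (TGANTCA, 6.75%) and an interferon-stimulated response element (GAAA, any 2 bases and GAAA again, 2.98%). Each motif was searched by itself, and matches may share bases. The Tnf window held a TATA box 29 to 24 bases upstream of its start. That of Lta held TATAAA 167 to 162 bases upstream, and that of Ltb an NF-kB site, read on the opposite strand, 87 to 78 bases upstream. All distances count from the RefSeq start. For Ltb this start lies inside the gene span given above, so the printed Ltb sequence ends before it. An AP-1 match was found 160 to 154 bases upstream of Tnfsf14 and 133 to 127 bases upstream of Tnfsf13. A second annotated start of Tnfsf13b had an AP-1 match 127 to 121 and a response element 16 to 7 bases upstream. AP-1 matches thus lay upstream of a RefSeq start for 2 ligands that were higher and for 1 that was lower. Those of Tnfsf13 and Tnfsf13b, and the response element, lie inside the gene spans given below for these ligands. Only the AP-1 match of Tnfsf14 lies outside the annotated gene. The call of Tnfsf13 as higher also depends on the treatment of Tnfsfm13. None of the 4 motifs was found for Tnfsf10. A match is only a description of letters.

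Tnf, which encodes the family's founding cytokine, was at 812 and 820.4 TPM in WT, against 206 and 149.8 in Tet2 KO. Both WT values lay far above both KO values, and Tnf ranked at place 173 among all genes in WT but at 842 in Tet2 KO. The level was 4.59-fold lower (816 against 178 ± 39.7 TPM), a log2 difference of -2.21 ± 0.25 (limma, adjusted p = 3.97e-06), and -1.62 after scaling to ERCC.

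Lta encodes lymphotoxin alpha, which is secreted as a trimer that binds the TNF receptors or joins lymphotoxin beta at the membrane. Its level was 20.3 and 21.5 TPM in WT, against 0.33 and 0.25 in Tet2 KO. At the estimated depth this is about 266 and 255 reads against 4.9 and 3.9, so the KO level rests on few reads. No fold change is given for this reason. The log2 difference was -4.09 ± 0.29 (limma, adjusted p = 1.04e-08), and -3.75 scaled to ERCC. With a pseudocount of 0.1 in place of 1 the difference was -5.76.

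Ltb encodes lymphotoxin beta, the membrane anchor of the lymphotoxin heterotrimer that signals through LTBR. It was the only gene of the trio that rose, from 3.53 and 3.90 TPM in WT to 28.9 and 20.1 TPM in Tet2 KO. The mean was 6.60-fold higher (3.71 against 24.5 ± 6.20 TPM), with a log2 difference of 2.42 ± 0.29 (limma, adjusted p = 6.17e-06) and of 2.94 scaled to ERCC. Against Ltb, Tnf mRNA was 230.2 and 210.4 times as abundant in WT and 7.12 and 7.44 times in Tet2 KO. Against Lta, Tnf was 40.1 and 38.1 times as abundant in WT. In Tet2 KO the ratio to Lta was higher. No figure is given for it, since the Lta level there rests on about 4.9 and 3.9 reads. Lta and Ltb are best known from lymphocytes, so the levels of lymphocyte markers are given here. Any part of lymphocytes in the levels of Lta and Ltb was not tested. The summed level of 10 T cell markers was 13.6 and 13.4 TPM in WT and 8.70 and 12.9 in Tet2 KO, and that of 8 B cell markers 9.60 and 8.62 against 6.45 and 4.13. Of these, 6 T cell and 2 B cell markers could be tested. Among the T cell markers 1 rose and 2 fell, and with ERCC scaling the 2 that fell did not pass. The B cell marker Cd79a rose, from 0.47 and 0.95 TPM in WT to 3.68 and 1.98 in Tet2 KO. Cd79b fell, from 8.36 and 7.08 to 2.18 and 1.57 TPM. Over all tested genes 22.1% rose and 26.7% fell. Cd28 entered the test only through WT, and Thy1 and Cd79a only through Tet2 KO. The summed level of 7 NK cell markers was 11.4 and 11.8 TPM against 0.430 and 1.71. In WT nearly all of it was Klrk1, at 10.93 and 11.15 TPM, which was at 0.08 and 0.35 TPM in Tet2 KO. Ncr1 and Klra8 were at 0 in every library.

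**Figure D2:**
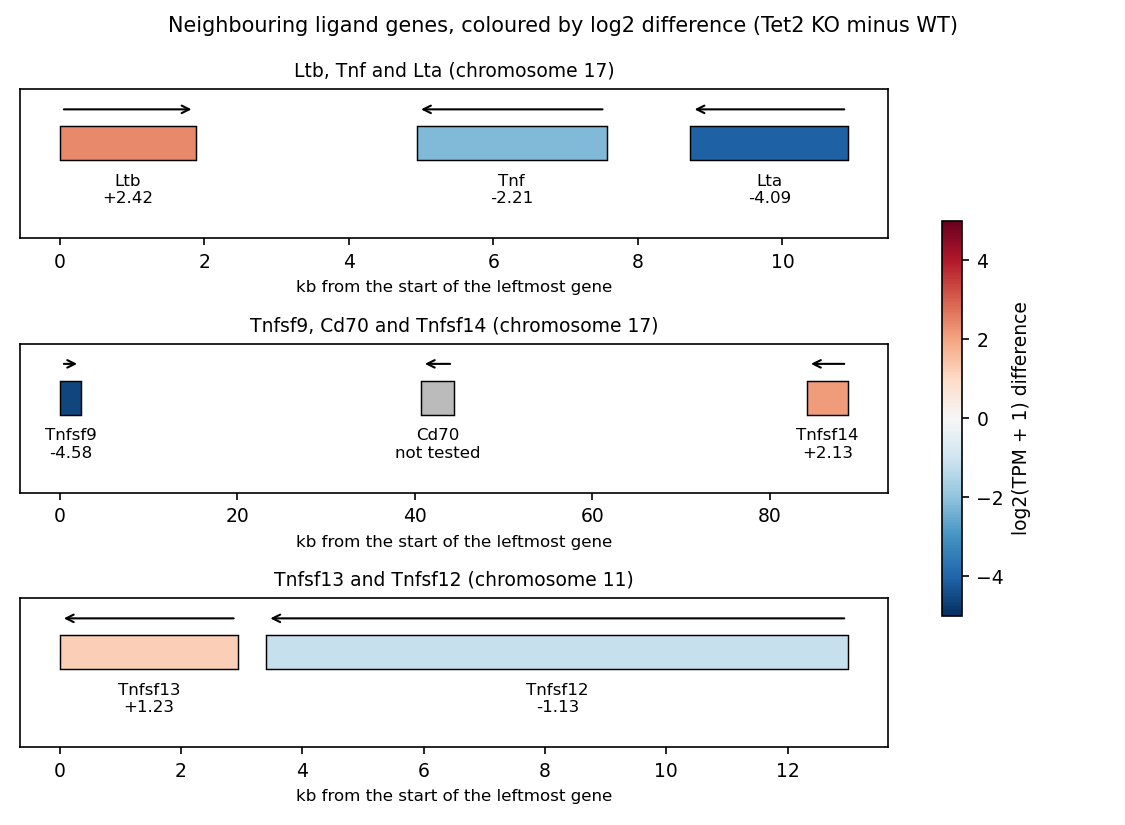
Gene maps of 3 loci that hold neighbouring ligand genes, with the distance in kb from the start of the leftmost gene, arrows for the direction of transcription and colour for the log2(TPM + 1) difference (grey, not tested). Ltb at +2.42 lies beside Tnf at -2.21 and Lta at -4.09, and Tnfsf14 at +2.13 lies in the same locus as Tnfsf9 at -4.58.

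A second cluster on chromosome 17, of 88.9 kb, holds Tnfsf9, Cd70 and Tnfsf14, and its outer genes also differed in direction. Tnfsf9 (57105325 to 57107757, forward strand) encodes 4-1BB ligand, a costimulator of T cells and NK cells. Its level was 278 and 276 TPM in WT, against 9.31 and 12.1 in Tet2 KO, or about 3368 and 3008 estimated reads against 128 and 173. The mean was 25.8-fold lower (277 against 10.7 ± 2.00 TPM), with a log2 difference of -4.58 ± 0.22 (limma, adjusted p = 1.70e-10) and of -4.01 scaled to ERCC. Among the 9 tested ligands this was the largest fall on the log2(TPM + 1) scale, but with ERCC scaling that of Tnfsf10 was larger (-4.11). Gm11110, a noncoding gene, is annotated on the opposite strand of Tnfsf9. The library kit keeps the strand, but no source used here says whether the counting did.

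Tnfsf14 (57189492 to 57194177, reverse strand) encodes LIGHT, which binds HVEM and the lymphotoxin beta receptor. It was at 3.45 and 4.60 TPM in WT, against 21.1 and 20.9 in Tet2 KO, about 63.1 and 75.7 estimated reads against 437 and 450.4. The mean was 5.21-fold higher (4.03 against 20.99 ± 0.0849 TPM), with a log2 difference of 2.13 ± 0.27 (limma, adjusted p = 8.28e-06) and of 2.66 scaled to ERCC. In WT, Tnfsf9 was 80.7 and 60.0 times as abundant as Tnfsf14. In Tet2 KO the order was inverted, at 0.442 and 0.580 times. Cd70, the ligand of CD27, lies between them, 38.2 kb from Tnfsf9 and 39.7 kb from Tnfsf14. It was at 0.880 and 1.39 TPM in WT, was listed at 0 in both KO libraries, and was not tested.

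Tnfsf13 and Tnfsf12 are neighbours on chromosome 11, both on the reverse strand and 465 nt apart. Tnfsf12 (69686250 to 69695849) encodes TWEAK, which binds the FN14 receptor. Its level was 56.4 and 53.2 TPM in WT, against 23.6 and 25.2 in Tet2 KO, 2.24-fold lower (54.8 against 24.4 ± 1.10 TPM). The log2 difference was -1.13 ± 0.21 (limma, adjusted p = 0.000316), and -0.55 with ERCC scaling (adjusted p = 0.0302), the smallest of the 9 on both scales. Tnfsf13 (69682846 to 69685784) encodes APRIL, a B cell and plasma cell factor that furin cleaves inside the cell. It was at 7.53 and 9.52 TPM in WT, against 22.2 and 20.6 in Tet2 KO, 2.51-fold higher (8.53 against 21.4 ± 1.07 TPM). The log2 difference was 1.23 ± 0.25 (limma, adjusted p = 0.000858), and 1.79 scaled to ERCC. As deposited, the neighbours thus moved in opposite directions.

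The rise of Tnfsf13 stood beside a fall of a gene that overlaps it. Tnfsfm13 is annotated as a read-through gene that joins exons of Tnfsf12 to exons of Tnfsf13, so that reads in the shared exons have to be divided by the estimate. Its level was 15.8 and 14.0 TPM in WT, against 1.98 and 3.27 in Tet2 KO, a log2 difference of -2.16 ± 0.33 (limma, adjusted p = 5.69e-05). The sum of Tnfsf13 and Tnfsfm13 was 23.3 and 23.6 TPM in WT, against 24.1 and 23.9 in Tet2 KO, so the summed level barely differed. In a fit with the summed row, chosen after the values were seen, the log2 difference was 0.03 ± 0.22 (limma, adjusted p = 0.913), and with ERCC scaling 0.61 (adjusted p = 0.0281). The call of Tnfsf13 as higher is therefore lost when the read-through is added, without ERCC scaling. An exchange between the transcripts and a different division of shared reads cannot be told apart in these values. The fall of Tnfsf12 held: with Tnfsfm13 added it was at 72.2 and 67.2 TPM against 25.6 and 28.5, a log2 difference of -1.34 ± 0.20 (limma, adjusted p = 5.07e-05). Tnfsf13os, an antisense gene, also overlaps both.

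Tnfsf13b, on chromosome 8 (10006467 to 10039072, forward strand), encodes BAFF, a survival factor for B cells that myeloid and dendritic cells make. It was at 17.9 and 16.0 TPM in WT, against 0.75 and 0.92 in Tet2 KO. The mean was 16.9 TPM in WT against 0.835 ± 0.120 TPM in Tet2 KO. The log2 difference was -3.29 ± 0.30 (limma, adjusted p = 2.15e-07) and -2.88 scaled to ERCC. No fold change is given, since both KO values lie below 1 TPM. Tnfsf13b entered the test through its WT level alone, so a fall was the direction open to it. BAFF mRNA thus left the range above 1 TPM, whereas its relative APRIL did not. Gm44789 is annotated on the opposite strand.

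Tnfsf10, on chromosome 3 (27317028 to 27342427, forward strand), encodes TRAIL, which triggers cell death through its death receptor and is known as an interferon-induced gene. It was at 22.9 and 23.9 TPM in WT, against 0.110 and 0.190 in Tet2 KO. It was the lowest of the 10 ligands in Tet2 KO and the fourth highest in WT. The log2 difference was -4.41 ± 0.28 (limma, adjusted p = 4.01e-09) and -4.11 scaled to ERCC. With a pseudocount of 0.1 it was -6.57, because a pseudocount of 1 exceeds the KO level. A fold change is not given, since the KO values correspond to few reads.

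Tnfsf4, on chromosome 1 (161395409 to 161418410, forward strand), encodes OX40 ligand, a T cell costimulator of antigen-presenting cells. Its values were 0.900 and 1.06 TPM in WT, against 0.340 and 0.380 in Tet2 KO, about 16.4 and 17.4 estimated reads against 7.0 and 8.2. Only 1 library reached 1 TPM, so no test was made. Its reads were few in every library.

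**Figure D3:**
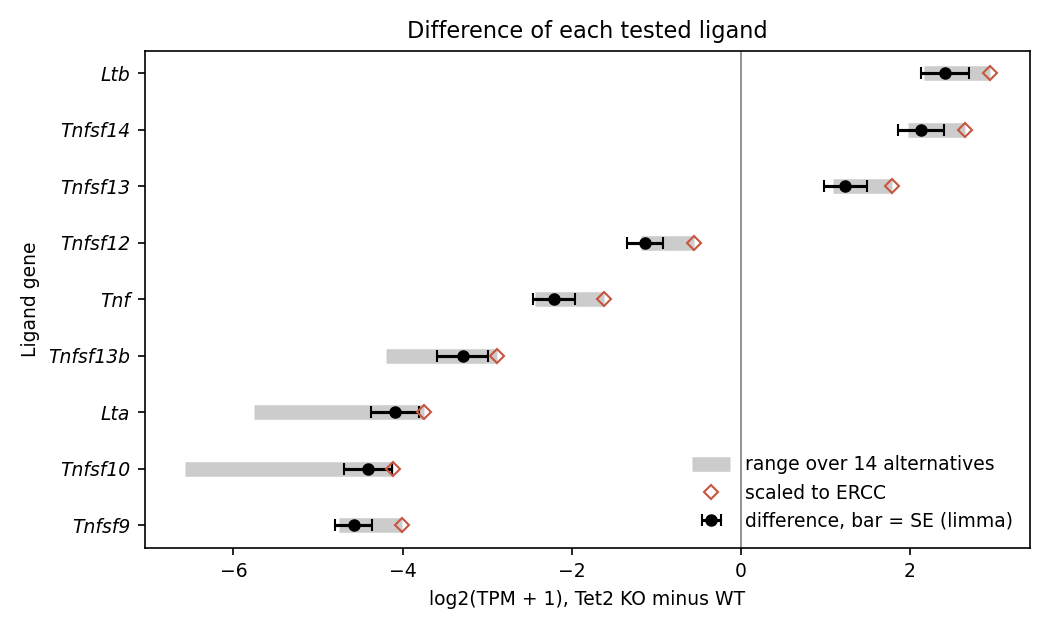
Difference of the 9 tested ligands in log2(TPM + 1), Tet2 KO minus WT, with the limma standard error (bars), the range over 14 alternative settings (grey) and the ERCC-scaled value (diamonds). The points run from -4.58 for Tnfsf9 to 2.42 for Ltb, and no grey range crosses 0; the added read-through sum for Tnfsf13 is not drawn.

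The direction of all 9 tested ligands was the same under 14 alternative settings, and all 9 calls held in 13 of them, with adjusted p-values of limma from 2.27e-13 to 0.0302. In 2 of these, each without a KO library, the spread came from the WT pair alone. With no filter on low values 7 of the 9 calls were lost (adjusted p from 0.0581 to 0.167), and those of Lta (0.0376) and Tnfsf10 (0.0346) held. Without the filter 7859 of 24497 genes had no spread between the KO libraries, and the prior degrees of freedom of the fit went from 14.5 to 0.674.

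Of 8 further ligands of the superfamily, 5 were below 1 TPM in every library: Fasl, Cd40lg, Tnfsf11, Tnfsf18 and Eda. Only 2 could be tested, Tnfsf8 and Tnfsf15, both through their WT level, and both fell. Tnfsf8, which encodes CD30 ligand, was at 75.3 and 74.4 TPM in WT, against 0.160 and 0.810 in Tet2 KO (log2 difference -5.71 ± 0.34, limma, adjusted p = 4.88e-09). Tnfsf15, which encodes TL1A, was at 7.58 and 7.22 TPM in WT and was listed at 0 and 0.0100 TPM in Tet2 KO (-3.06 ± 0.25, limma, adjusted p = 6.84e-08). They are neighbours on chromosome 4, 86.2 kb apart. Since both entered the test through WT alone, a fall was the direction open to them.

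Among the receptors, rises outnumbered falls, whereas over all tested genes 22.1% rose and 26.7% fell. Of 28 receptor genes 20 were tested, and 11 rose, 5 fell and 4 did not pass; the median log2 difference was 0.97, against -0.12 over all tested genes. Scaled to ERCC, 12 rose and 3 fell, with a median of 1.40 against 0.43. Among the 17 at 1 TPM or more in all libraries, 8 rose and 5 fell.

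The receptors for Tnf and Lta rose while these ligands fell. Tnfrsf1a, the widely expressed death domain receptor, was at 189 and 193 TPM in WT and at 501 and 458 in Tet2 KO (log2 difference 1.32 ± 0.23, limma, adjusted p = 0.000238). Tnfrsf1b, the TRAF-binding receptor of leukocytes, was at 422 and 425 against 1262 and 931 TPM (1.35 ± 0.28, adjusted p = 0.000891 by limma). Ltbr, which binds LIGHT and the lymphotoxin heterotrimer, rose together with Ltb and Tnfsf14, from 55.1 and 53.9 to 145 and 136 TPM (1.35 ± 0.20, limma, adjusted p = 3.60e-05). The other LIGHT receptor gene, Tnfrsf14, had 24.7 TPM in both WT libraries against 18.1 and 9.69 in Tet2 KO and did not pass (limma, adjusted p = 0.0657).

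Tnfrsf9, the receptor of 4-1BB ligand, was lower together with its ligand, at 12.4 and 11.7 TPM in WT and 1.27 and 2.81 in Tet2 KO (log2 difference -2.15 ± 0.35, limma, adjusted p = 0.000202). Tnfrsf12a, the TWEAK receptor, was at 43.8 and 43.9 against 24.6 and 25.5 TPM (-0.78 ± 0.21, limma, adjusted p = 0.00603). Tnfrsf13b, which encodes TACI and binds both BAFF and APRIL, was at 22.4 and 23.9 against 10.1 and 14.0 TPM (-0.90 ± 0.27, limma, adjusted p = 0.0128). Scaled to ERCC neither of the latter calls held, with adjusted p-values of limma of 0.331 for Tnfrsf12a and 0.237 for Tnfrsf13b. The other BAFF receptor genes were nearly silent: Tnfrsf13c was below 1 TPM in all libraries and Tnfrsf17 was listed at 0.

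For Tnfsf10, mice have 1 death receptor gene, Tnfrsf10b, and the decoy receptor genes Tnfrsf22 and Tnfrsf23, and each of the 3 was higher where the ligand was lower. Tnfrsf10b was at 0.640 and 0.420 TPM in WT and at 2.83 and 2.10 in Tet2 KO (log2 difference 1.17 ± 0.28, limma, adjusted p = 0.00251), and entered the test only through its KO level. Tnfrsf22 went from 2.51 and 2.62 to 37.8 and 41.0 TPM (3.50 ± 0.25, limma, adjusted p = 1.30e-08). Tnfrsf23 went from 14.9 and 14.8 to 345 and 282 TPM (4.30 ± 0.21, limma, adjusted p = 1.49e-10). Larger rises were seen in Tnfrsf26, a related gene of unknown ligand, from 6.00 and 6.54 to 368 and 336 TPM (5.60 ± 0.20, limma, adjusted p = 5.79e-12), and in Tnfrsf21, the death receptor DR6, from 4.46 and 5.42 to 138 and 142 TPM (4.57 ± 0.19, limma, adjusted p = 2.36e-11). Tnfrsf22, Tnfrsf23 and Tnfrsf26 lie near each other on chromosome 7 (143607659 to 143685872), all on the reverse strand. The largest fall among the receptors was that of Cd40, a receptor of antigen-presenting cells, from 147 and 139 to 3.27 and 6.36 TPM (-4.68 ± 0.33, limma, adjusted p = 7.75e-07). Tnfrsf11a, which encodes RANK, was at 73.6 and 72.5 against 10.8 and 12.0 TPM (-2.58 ± 0.23, limma, adjusted p = 2.15e-07).

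**Figure D4:**
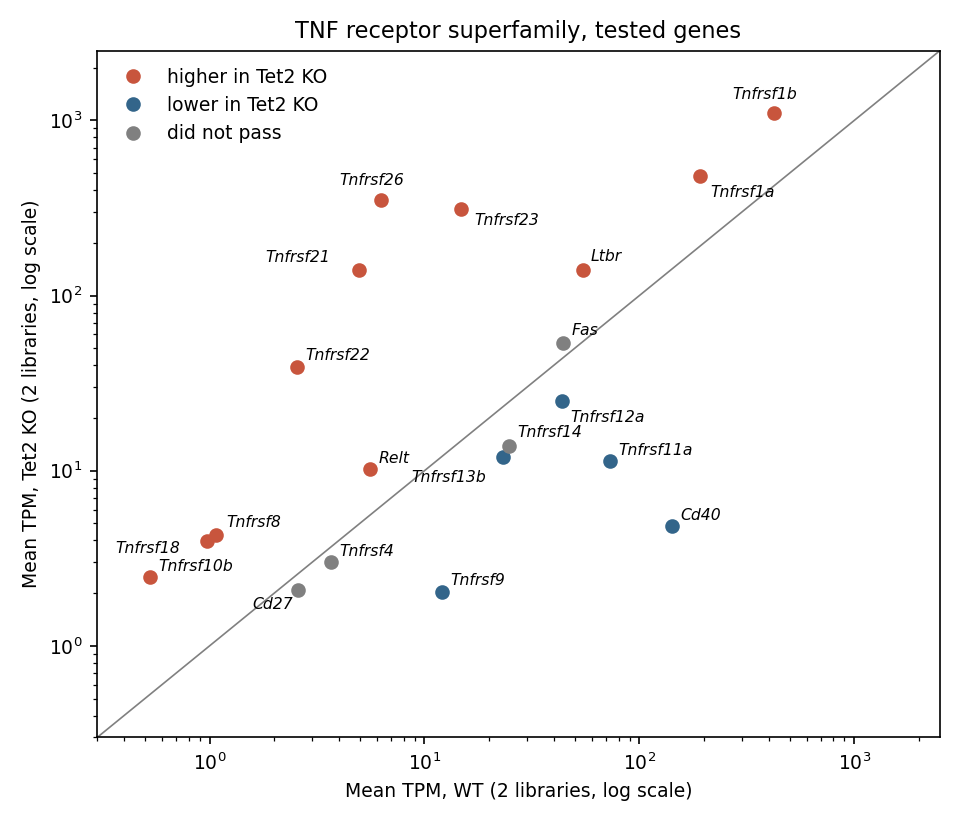
Mean TPM of the 20 tested receptor genes in Tet2 KO (vertical, log axis) against WT (horizontal, log axis), coloured by whether they passed the limma test, with the line of equal level in grey. Tnfrsf26, Tnfrsf23 and Tnfrsf21 lie far above the line, Cd40 far below it, and Tnfrsf1a, Tnfrsf1b and Ltbr moderately above it.

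Downstream of the receptors, of 23 tested adaptor, kinase and ubiquitin ligase genes, 1 rose and 10 fell. Over all tested genes 22.1% rose and 26.7% fell, and 48.8% passed in either direction, a share close to that of this list. The median log2 difference of the list was -0.51, against -0.12 over all tested genes. Scaled to ERCC, 7 rose and 4 fell, and the median was 0.08 against 0.43 over all tested genes. The largest falls were those of Traf1, an adaptor that NF-kB induces (-3.17 ± 0.20, limma, adjusted p = 2.55e-09), Birc3 and Birc2, which encode the cIAP ubiquitin ligases (-1.46 and -1.13), and Rnf31, the catalytic subunit of the linear ubiquitin ligase (-1.28). Ripk1, the kinase that binds the TNF receptor complex, rose (0.69 ± 0.19, limma, adjusted p = 0.00692). Of 13 NF-kB subunit and feedback genes 0 rose and 8 fell (limma; also 0 and 8 at an unadjusted p under 0.05), with a median of -0.82 (1 rose and 6 fell with ERCC scaling, median -0.23). Their largest falls were those of the inhibitor gene Nfkbie (-1.84 ± 0.19, limma, adjusted p = 9.49e-07), the subunit genes Nfkb2 (-1.69) and Nfkb1 (-1.39), and Tnfaip3, which encodes the feedback enzyme A20 (-1.49).

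Of 8 tested genes that process the ligands, 2 rose and 1 fell, with a median of -0.36 (0.23 with ERCC scaling); over all tested genes 48.8% passed. With all 4 libraries as samples 5 of the 8 fell, and without Tet2 KO replicate 2 6 of them fell. Adam17, which encodes the main TNF sheddase, was at 201 and 199 TPM in WT and at 168 and 156 in Tet2 KO and did not pass (limma, adjusted p = 0.247). Furin, the protease that cleaves APRIL, rose (log2 difference 1.01 ± 0.23, limma, adjusted p = 0.00195), as did Frmd8, a cofactor that stabilises the sheddase complex (1.19 ± 0.20, limma, adjusted p = 0.000124). Sppl2a, an intramembrane protease that cuts the TNF stub, fell (-1.76 ± 0.19, limma, adjusted p = 1.25e-06). Of 10 genes of Tnf mRNA decay and stability, 2 rose and 2 fell, with a median of -0.14 (5 and 1 with ERCC scaling, median 0.45). Zfp36, which encodes tristetraprolin, a protein that destabilises Tnf mRNA, fell (-1.10 ± 0.26, limma, adjusted p = 0.00239), but did not pass with ERCC scaling (adjusted p = 0.113). Its relatives Zfp36l1 and Zfp36l2 differed in direction, at -1.35 ± 0.21 (limma, adjusted p = 7.64e-05) and 1.61 ± 0.25 (limma, adjusted p = 7.31e-05), and Rc3h1, which encodes roquin, rose (0.74 ± 0.19, limma, adjusted p = 0.00388).

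**Figure D5:**
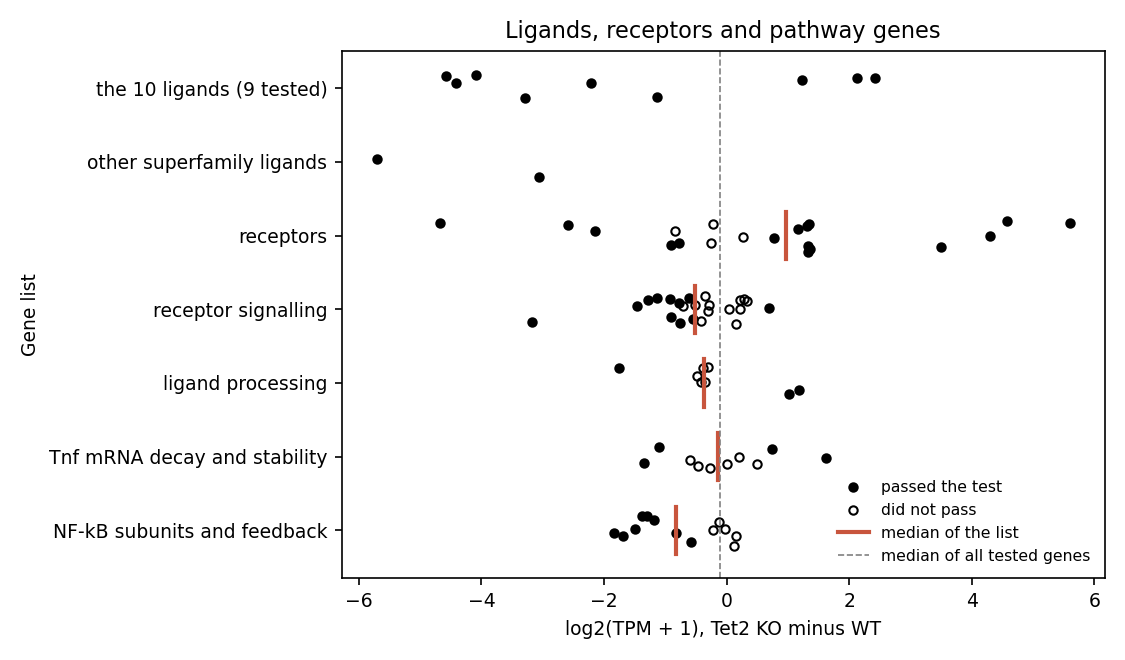
Difference in log2(TPM + 1), Tet2 KO minus WT, of each tested gene in 7 lists (filled points passed the limma test, open points did not), with the list median as a bar for all lists but those of the ligands and the median of all tested genes as a dashed line. The receptor list lies mostly to the right of the dashed line at -0.12, and the NF-kB list lies mostly to its left.

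Markers of other blood cells moved with the same labels. Over all tested genes 22.1% rose and 26.7% fell. Markers of dendritic cells and macrophages were mostly lower in Tet2 KO. Of 8 dendritic cell markers 6 were tested and all 6 fell, and their summed level was 432 and 436 TPM in WT against 63.7 and 44.4 in Tet2 KO. Most of the WT sum was Ccr7 alone, at 267 and 272 TPM. Siglech entered the test only through its WT level, so a fall was the direction open to it. With ERCC scaling or quantile normalization 4 of the 6 fell, and Xcr1 and Itgax did not pass. Among the defining dendritic cell markers, Clec9a and Cd209a did not exceed 0.53 TPM in any library and Xcr1 was at 4.62 and 5.12 TPM in WT against 1.83 and 2.45. Of 8 macrophage markers 7 were tested, 5 fell and 1 rose, with sums of 1823 and 1835 against 574 and 525 TPM, and Vcam1 was below 1 TPM throughout. With ERCC scaling 3 fell and 2 rose, and Adgre1 and Cd68 did not pass. Neutrophil markers were higher in Tet2 KO: all 10 rose, and their sum was 1466 and 1488 TPM in WT against 85273 and 69197 in Tet2 KO. Of these 10, Ly6g entered the test only through its KO level, so a rise was the direction open to it. The 5 mast cell and basophil markers summed to 0.940 and 0.950 against 36.5 and 41.9 TPM, and the 2 that were tested rose. The 5 erythroid markers summed to 3.63 and 2.33 against 6.93 and 46.7 TPM, and of 3 tested 2 rose. All that rose in these 2 lists entered the test only through Tet2 KO. Most of the 46.7 TPM was Hba-a1, at 0 and 33.9 TPM in the KO libraries, which did not pass (limma, adjusted p = 0.897). The part of these cell types in the changes of the ligands was not tested.

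Genes whose profile over the 4 libraries was closest to that of 2 ligands were found by the root mean square distance between log2(TPM + 1) profiles, each centred on its own mean. For Ltb, the ligand with the largest rise, they were Vamp5 (distance 0.0246), Ttc39b (0.0429) and Fam167a (0.0474). For Tnfsf9, the ligand with the largest fall on the log2(TPM + 1) scale, they were the interferon-induced genes Isg15 (0.0301) and Irgm2 (0.0349), and Cnn3 (0.0409). With ERCC scaling Tnfsf10 fell more than Tnfsf9 (-4.11 against -4.01), and with a pseudocount of 0.1 so did Tnfsf10 and Lta (-6.57 and -5.76 against -4.69), so the choice of Tnfsf9 depends on the scale. Within a distance of 0.25 lay 233 of the 11919 tested genes for Ltb and 52 for Tnfsf9.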

How the data were processed

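RNA-seq libraries of leukaemic cells, 2 labelled WT and 2 labelled Tet2 KO, were analysed from the TPM values that the authors deposited in 1 table. Per the submitters' processing notes, STAR, RSEM and build mm10 were used; no versions are stated. The 92 ERCC rows were left out of tests, and 27 rows carry a date in place of a gene name. Coordinates are from GENCODE M21. TPM keeps no depth. From the low values of genes with 1 annotated transcript of 600 to 2500 nt (length minus 200 nt), of which 75.3% to 80.5% lay within 0.2 of a whole read, depth was about 12.2 to 15.4 M reads with mean transcript lengths, or 24.4 to 30.8 M with the longest ones. These are approximations and cover counting only.

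Over 542 such genes the WT pair showed 0.964 times the variance of read sampling (3.00 without robust estimation, 6 genes beyond 5 SD), against 5.53 over 584 genes (48.6, and 72 genes) for Tet2 KO. For this reason WT entered as the average of its libraries, with n = 1. Differences on log2(TPM + 1) were tested two-sided in R 4.3.3 by limma 3.58.1, using an abundance trend and robust estimation, 1 residual and 14.5 prior degrees of freedom, over genes with at least 1 TPM in 2 libraries. The procedure was run on simulated data in which few genes changed. In the real data 48.8% of tested genes passed, so that run does not measure the error rate here. Marker lists of T, NK, B, dendritic, mast and erythroid cells, macrophages and neutrophils were described by counts and summed levels. A log2(TPM + 1) difference understates the change of low genes.

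Named genes are the 10 ligands, Tet2 and, of each list, up to 4 with the largest fall and 3 with the largest rise among those that passed (not all are named), plus the receptors of the ligands, the neighbours in their loci and Adam17. The members, lists and tests were chosen with earlier results of these data known, and Tnfsfm13 after its values were seen. Alternatives changed the pseudocount, filter, scaling, variance estimate, averaging of WT libraries, replicate block and each library in turn.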

Additional observations from a re-analysis of the deposited data

How the results depend on the processing

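Genes below the filter in both groups, such as Tnfsf4, were not tested, and KO levels below 1 TPM rest on few reads. The ligand calls were 3 higher and 6 lower under 13 of the 14 alternatives, and 0 higher and 2 lower with no filter on low values (3 and 7 at an unadjusted p under 0.05). Over all genes, 2629 were higher and 3182 lower. These counts became 246 and 1798 with no filter, and 4942 and 1492 scaled to the ERCC total. Leaving out 1 library gave 2651 to 4321 genes higher and 3192 to 5674 lower; the larger counts, 4321 and 4987 without Tet2 KO replicate 1 and 3974 and 5674 without replicate 2, come from fits with a single KO library. There the spread comes from the WT pair alone, which varied about as read sampling does, so the ligand counts of 3 and 6 in those fits say nothing about stability. Without either WT replicate the ligand counts were also 3 and 6. The numbers of the replicates do not pair the samples (correlation of deviations -0.011 over 11919 genes). With the replicate number as a block on all 4 libraries, 3495 genes were higher and 4461 lower, against 3520 and 4517 without the block, and the ligands stayed at 3 and 6. With no filter the receptors had 3 higher and 2 lower, and the lists of signalling, processing, mRNA decay and NF-kB genes had 0 lower. With ERCC scaling the receptors had 3 lower. Signalling genes had 4 higher with all 4 libraries as samples, 2 with the block, 6 without Tet2 KO replicate 1, and 5 with 16 lower without replicate 2. Processing genes had 5 lower with all 4 libraries, with the block and without Tet2 KO replicate 1, and 6 without replicate 2. Decay genes had 5, 4, 5 and 5 lower in that order, and 4 higher without Tet2 KO replicate 2, where 2 NF-kB genes were higher. With Tnfsfm13 added to Tnfsf13, an alternative chosen after seeing the data, the difference of Tnfsf13 was 0.03 and did not pass, and with ERCC scaling it was 0.61 and passed.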
